A study of Mus musculus with 4 samples.

Results

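The AMPA and kainate receptor genes described here are the 9 rows of the deposited tables whose symbols are Gria1, Gria2, Gria3, Gria4, Grik1, Grik2, Grik3, Grik4 and Grik5, of 22328 genes in all. They were picked by symbol alone, at a time when earlier results of these data were known. The 4 libraries are poly(A)-selected mouse RNA sequenced in paired-end mode, with 1 library in each group. F1m-GCS is hippocampus of offspring whose dams ate 5 g/kg choline chloride between embryonic day 9 and birth, and F1m-CON is hippocampus of offspring whose dams ate 1.1 g/kg. Offspring of both groups ate a basal diet once born and took mood-related behaviour tests at an age of 2 months; how many animals went into each library is not stated in the labels. HT22 SUP and HT22 CON are cultures of HT22, an immortalised mouse hippocampal neuronal cell line, held for 48 h at 70 µM (SUP) or 5 µM (CON) choline chloride in medium with serum. Because every group held 1 library, no difference below has a replicate check, no test of diet or medium is possible, and the 95% intervals cover counting error only.

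AMPA receptors are tetramers of the subunits GluA1 to GluA4, encoded by Gria1 to Gria4, and carry most fast excitatory transmission in the hippocampus. GluA2, the product of Gria2, makes the channel impermeable to calcium when its pore codon for glutamine has been edited to arginine in the RNA by ADAR2, the product of Adarb1. Kainate receptors are tetramers of GluK1 to GluK5, encoded by Grik1 to Grik5. GluK1, GluK2 and GluK3 can form channels by themselves, whereas GluK4 and GluK5 need one of them as a partner. In the hippocampus kainate receptors are best known at the mossy fibre synapses of CA3, where GluK2, GluK4 and GluK5 are the main subunits.

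The pore codon is shown because the family shares it and because subunit makeup and editing together set calcium entry. It was read from the longest coding transcript of each gene in GENCODE M21, on the GRCm38 build, with the codon of the edited position in capitals and 12 coding bases on each side.
Gria1: ggggccttcatgCAGcaaggatgtgac
Gria2: ggtgcctttatgCAGcaaggatgcgat
Gria3: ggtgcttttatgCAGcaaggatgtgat
Gria4: ggtgcctttatgCAAcaaggatgtgac
Grik1: ggagctctcatgCAGcaaggatcggag
Grik2: ggagctctcatgCAGcaaggttctgag
Grik3: ggctccctgatgCAGcaaggatctgaa
Grik4: ggaggcttcatgCAGcaaggctccact
Grik5: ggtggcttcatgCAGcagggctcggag
In 8 of the 9 genes the codon was CAG, and in Gria4 it was CAA. In Gria2 the stretch lay in exon 11 of its transcript, on the minus strand at chr3:80706899-80706925, and in Grik2 it crossed the junction of exons 12 and 13. Over the 27 bases Gria3 shared 25 with Gria2, and Grik1 shared 25 with Grik2. The deposited counts are sums per gene, so they hold no information on how many transcripts were edited or which splice form they were.

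Reads in genes numbered 30265820 in F1m-GCS, 31175015 in F1m-CON, 13192007 in HT22 SUP and 18305096 in HT22 CON. In mm10 the tables place Gria1 (ENSMUSG00000020524) at chr11:57011387-57330244, Gria2 (ENSMUSG00000033981) at chr3:80684936-80802791, Gria3 (ENSMUSG00000001986) at chrX:41400854-41678601 and Gria4 (ENSMUSG00000025892) at chr9:4417899-4796234. Grik1 (ENSMUSG00000022935) lies at chr16:87896196-88056176, Grik2 (ENSMUSG00000056073) at chr10:49099460-49788766 and Grik3 (ENSMUSG00000001985) at chr4:125490700-125714173. Grik4 (ENSMUSG00000032017) lies at chr9:42518135-42944493 and Grik5 (ENSMUSG00000003378) at chr7:25009853-25072369. The coding lengths that the tables use are alike, between 2652 bases in Gria2 and 2940 in Grik5. No other gene of the tables overlaps an exon of these 9 in GENCODE M21.

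Hippocampus held far more AMPA than kainate subunit transcript. The 4 Gria genes summed to 715 RPKM (reads per 1000000 uniquely mapped, divided by the coding length in kilobases) in F1m-GCS and 643 in F1m-CON, and the 5 Grik genes to 149 and 143.5. The ratio of these sums was 4.78 in F1m-GCS and 4.48 in F1m-CON. All 10 pan-neuronal markers and all 6 excitatory neuron markers on the lists used here had reads in both hippocampus libraries, with summed levels of 7247 and 5084 CPM (reads per 1000000 reads in genes) in F1m-GCS and 7200 and 5259 CPM in F1m-CON.

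Gria1 was the leading AMPA subunit gene, with 359.8 RPKM from 37529 reads in F1m-GCS and 349 RPKM from 37332 reads in F1m-CON. Gria2 followed with 253 RPKM in F1m-GCS and 209.7 in F1m-CON. Gria3 had 79.5 RPKM in F1m-GCS and 64.4 in F1m-CON. Gria4, a subunit known best from interneurons and from early development, was the lowest, at 22.9 and 19.8 RPKM. In each hippocampus library the counting intervals of the 4 genes lay apart, in the order Gria1, Gria2, Gria3, Gria4.

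As a share of the summed AMPA level, Gria1 made up 50.3% (49.97 to 50.7) in F1m-GCS and 54.3% (53.9 to 54.7) in F1m-CON. Gria2 made up 35.3% (34.99 to 35.7) in F1m-GCS and 32.6% (32.2 to 33.0) in F1m-CON. Gria1 exceeded Gria2 by a factor of 1.42 in F1m-GCS and 1.67 in F1m-CON. No correction for GC content was made to these shares, and ratios between the libraries moved with it. With the median of genes of like length and GC subtracted, the log2 ratio of F1m-GCS over F1m-CON went from 0.29 to 0.08 for Gria2. For Gria1 it went from 0.06 to 0.03. Shares of Gria3 were 11.1% and 10.0%, and those of Gria4 were 3.20% and 3.08%, in F1m-GCS and F1m-CON in that order; the intervals of Gria3 lay apart and those of Gria4 overlapped. These shares depend on the length that reads are divided by, and the sources do not say whether reads were counted over whole exons or over coding sequence. Per exonic length in GENCODE M21, which is 15548 bases for Gria2 against 6043 for Gria1, Gria1 made up 68.5% in F1m-GCS and 71.8% in F1m-CON, and Gria2 made up 18.2% and 16.3%.

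**Figure D1:**
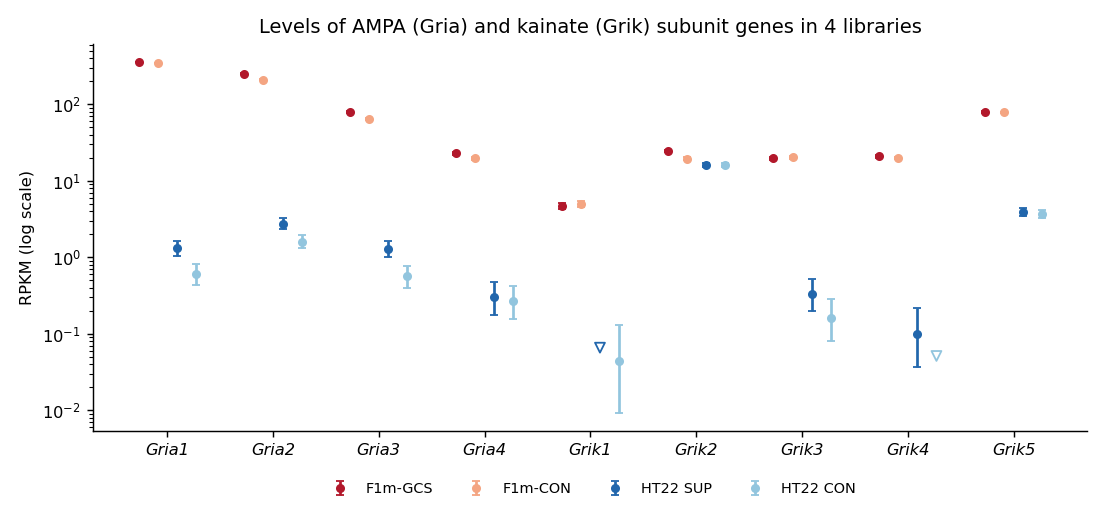
RPKM (log scale) of the 4 AMPA and 5 kainate subunit genes in each library, with exact 95% Poisson intervals; open triangles mark the upper limit for genes with 0 reads. Grik2 is the member whose HT22 points, at 16.3 RPKM in both cultures, lie close to its hippocampus points.

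Grik5, whose product forms channels only with a partner subunit, led the kainate family in hippocampus, with 79.3 RPKM in F1m-GCS and 78.7 in F1m-CON. In F1m-GCS its interval overlapped that of Gria3, and in F1m-CON it lay above that of Gria3. The next 3 kainate genes were close to one another. Grik2 had 24.6 RPKM in F1m-GCS and 19.5 in F1m-CON. Grik4, which in mouse hippocampus is enriched in CA3, had 20.9 RPKM in F1m-GCS and 19.96 in F1m-CON. Grik3 had 19.8 RPKM in F1m-GCS and 20.4 in F1m-CON. Neighbours in this order did not differ beyond counting error in F1m-CON, where the intervals of Grik3, Grik4, Gria4 and Grik2 overlapped each with the next. Grik1, a subunit of interneurons in this tissue, was the lowest member of either family at 4.75 RPKM in F1m-GCS and 4.95 in F1m-CON.

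Grik5 made up 53.1% (52.3 to 53.8) of the summed kainate level in F1m-GCS and 54.8% (54.0 to 55.6) in F1m-CON. The share of Grik2 was 16.5% (15.9 to 17.1) in F1m-GCS and 13.6% (13.1 to 14.1) in F1m-CON, the one kainate share whose intervals lay apart with F1m-GCS ahead. Grik3 made up 13.3% and 14.2%, Grik4 14.0% and 13.9%, and Grik1 3.18% and 3.45%, in each case with F1m-GCS given first. Per exonic length the share of Grik2 was 7.43% in F1m-GCS and 6.02% in F1m-CON, behind Grik3 and Grik4. The kainate shares, too, were not corrected for GC content.

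**Figure D2:**
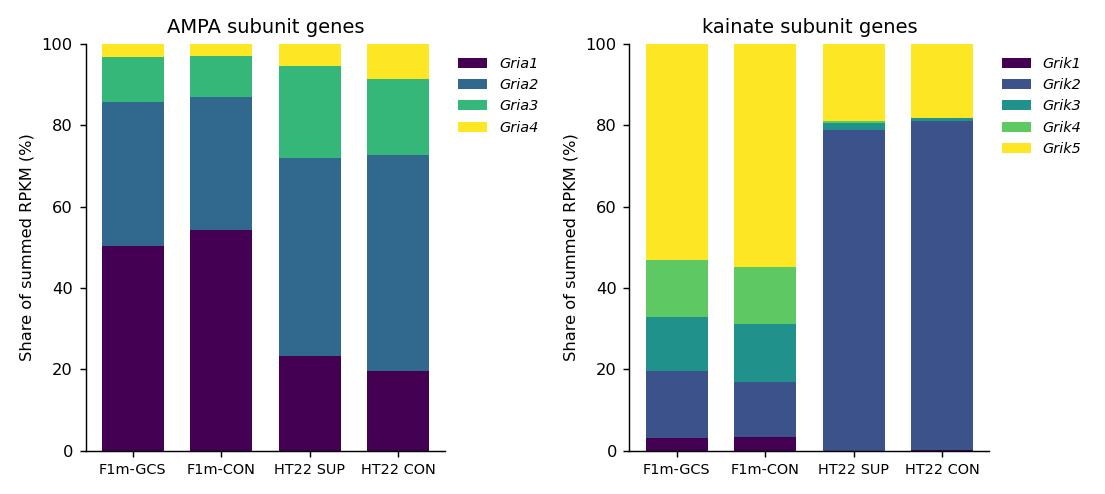
Share of each subunit gene (%) in the summed RPKM of its family, one bar per library. Per coding length, Gria1 and Grik5 take the largest shares in both hippocampus libraries, and Gria2 and Grik2 in both HT22 libraries; per exonic length Gria1 has the larger share in HT22 SUP, with intervals that overlap.

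No AMPA or kainate subunit gene differed by 1.5-fold between the hippocampus libraries. Of the 9 members, all with at least 50 reads and so measured, 0 were 1.5-fold higher and 0 were 1.5-fold lower in F1m-GCS, where 1.81% and 0.911% of 13392 measured genes were. Ratios below are log2 of F1m-GCS over F1m-CON after TMM scaling. Of the 9 members 7 had a ratio above 0, as 48.8% of measured genes did. The median over the 9 members was 0.09 and that over all measured genes was -0.004.

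The highest ratios in F1m-GCS, all below 1.5-fold, were those of a kainate gene and of the AMPA genes other than Gria1. Grik2 had 2573 reads in F1m-GCS and 2086 in F1m-CON, with a log2 ratio of 0.36 (0.27 to 0.44). Gria3 had 8123 and 6742 reads and a ratio of 0.32 (0.28 to 0.37). Gria2 had 25652 and 21825 reads and a ratio of 0.29 (0.26 to 0.31). Gria4 had 2372 and 2106 reads and a ratio of 0.23 (0.14 to 0.31). These lay between percentiles 87.7 and 94.2 of measured genes.

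The other members were closer to equal. Gria1, the most abundant, had a ratio of 0.06 (0.04 to 0.08), and Grik4 had 0.09 (0.003 to 0.17) on 2302 reads in F1m-GCS and 2249 in F1m-CON. Grik5 had 0.03 (-0.01 to 0.07). The remaining pair were nominally lower in F1m-GCS with intervals that held 0, Grik3 at -0.03 (-0.11 to 0.06) and Grik1 at -0.04 (-0.22 to 0.14). In all, the counting interval lay above 0 for 6 of the 9, below 0 for 0 and across 0 for 3. It lay above 0 for 20.9% of all measured genes, below 0 for 18.8%, and above 0 for 29.2% of the 4219 with at least 2000 reads in 1 library.

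Coding-sequence base composition moved with these ratios. The 5 members with a GC content under 48%, Gria2, Gria3, Gria4, Grik1 and Grik2 (44.7% to 47.5%), included all 4 with ratios above 0.2, and the other 4 (51.7% to 61.7%) had ratios from -0.03 to 0.09. Those 5 fall in 1 group of 295 measured genes of like coding length and GC, whose median ratio was 0.21 and of which 65.8% had intervals above 0. With the median of the like group subtracted, Grik2 had 0.14 (0.06 to 0.23), Gria3 0.11 (0.06 to 0.16), Gria2 0.08 (0.05 to 0.10) and Gria4 0.01 (-0.07 to 0.10). Grik1 stood below its like group, at -0.25 (-0.43 to -0.07). Gria1, in another group, had 0.03 (0.01 to 0.05), Grik4 had 0.07 (-0.02 to 0.15), and the members' median was 0.03. After this subtraction the interval lay above 0 for 4 of the 9 members and below 0 for 1. The part of base composition in the difference between the libraries was not tested beyond this subtraction.

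The authors' deposited table gives Gria2, Gria3, Gria4 and Grik2 a false discovery rate below 0.05, 4 of the 9 members, each with a positive log2 fold change, against 8.32% of all 22328 genes with a positive and 5.91% with a negative one. The deposited fold changes equal the ratios above to 2 decimals, with 0.36 for Grik2 and 0.29 for Gria2 in the authors' deposited table. The groups have 1 library each, so no replicate stands behind those rates.

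**Figure D3:**
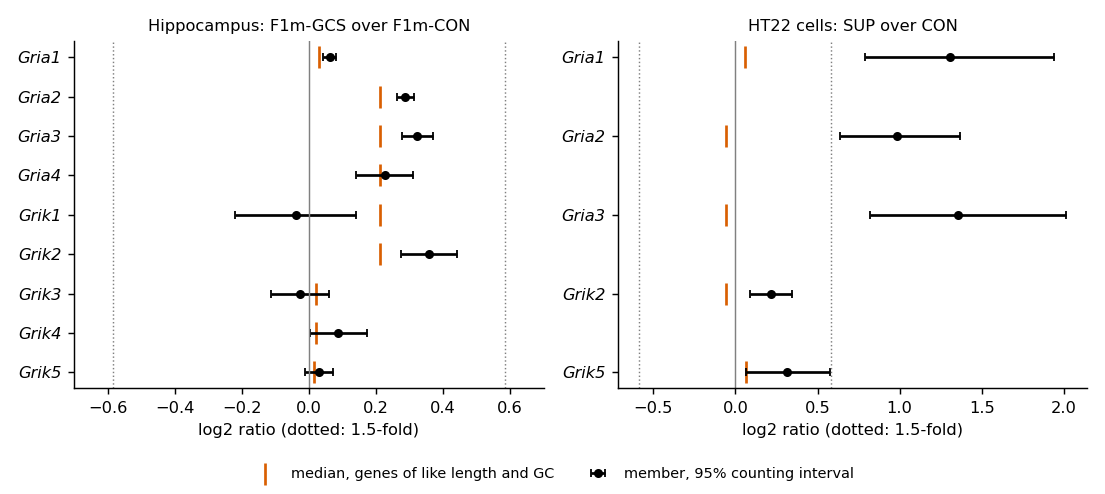
Log2 ratio of each measured member, F1m-GCS over F1m-CON (left) and HT22 SUP over HT22 CON (right), with 95% counting intervals; orange ticks are the medians of genes of like coding length and GC, and dotted lines mark 1.5-fold. In hippocampus every member lies inside the dotted lines, and in HT22 cells Gria1, Gria2 and Gria3 lie beyond them.

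Transcripts of the proteins that assemble and place these receptors likewise differed by less than 1.5-fold. Of 12 AMPA receptor auxiliary subunit genes measured, 0 were 1.5-fold higher or lower in F1m-GCS, and their median ratio was -0.02. Cacng5 and Gsg1l, a TARP gene and the gene of a claudin-like auxiliary protein, were lowest, with -0.42 (-0.58 to -0.26) on 543 reads in F1m-GCS and 756 in F1m-CON, and -0.37 (-0.49 to -0.25). Cnih2, a cornichon gene and the highest of the list per coding length at 652 RPKM in F1m-GCS and 713 in F1m-CON, had -0.11. With the median of its like group of length and GC subtracted, Cnih2 had -0.006. Other partner ratios are given before that subtraction, which took Sacm1l from 0.24 to 0.11 and Frrs1l from 0.13 to 0.20. The kainate auxiliary genes Neto1 and Neto2 had 0.25 (0.18 to 0.32) and 0.28 (0.18 to 0.38), while C1ql2, a secreted mossy fibre protein that binds kainate receptors, had -0.20 (-0.28 to -0.12), and the median of the 4 genes of that list was 0.13.

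Among 12 genes of AMPA receptor assembly and turnover, none reached 1.5-fold and the median was 0.04. The 3 farthest from 0 were Olfm3, which encodes a secreted olfactomedin, at 0.43 (0.28 to 0.59), Sacm1l at 0.24 and Nptx2, a neuronal pentraxin that clusters AMPA receptors, at 0.18. Among 9 trafficking and scaffold genes none reached 1.5-fold, with a median of 0.04, Akap5, an anchor of protein kinase A, at 0.28 (0.20 to 0.36), Grip1, which binds GluA2, at 0.25 and Grip2 at 0.10. Adarb1, the editing enzyme of the Gria2 pore codon, had 84.2 RPKM in F1m-GCS and 81.2 in F1m-CON, with a ratio of 0.07 (0.02 to 0.12). Adar had 0.07 and Adarb2 0.15.

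No marker outside the choroid plexus list differed by 1.5-fold between the hippocampus libraries. Single markers differed by as much as several subunit genes, with Olig2 at -0.325 (-0.445 to -0.207) and Slco1a4 at 0.315 (0.214 to 0.417). The interneuron, astrocyte, oligodendrocyte, oligodendrocyte precursor, microglia and endothelial lists had medians of -0.02, -0.06, -0.08, -0.02, -0.08 and 0.04. The excitatory neuron list had a median ratio of -0.05 and the pan-neuronal list -0.02, with 0 of 6 and 0 of 10 genes at 1.5-fold. The dentate granule cell list had a median of -0.05 and the CA field list 0.08. Choroid plexus markers were lower in F1m-GCS, with 3 of 6 at 1.5-fold, a median of -0.62 and a summed level of 1516 CPM in F1m-GCS and 1762 CPM in F1m-CON. In bulk tissue, fewer cells of a type and less RNA per cell cannot be told apart, and the part of tissue makeup in the subunit ratios was not tested.

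HT22 cells carried little AMPA transcript and one prominent kainate gene. The 4 Gria genes summed to 5.67 RPKM in HT22 SUP and 3.04 in HT22 CON, while the 5 Grik genes summed to 20.6 and 20.1 RPKM, so that the AMPA to kainate ratio was 0.275 in HT22 SUP and 0.151 in HT22 CON. Grik2 supplied 79.0% (76.6 to 81.2) of the kainate level in HT22 SUP and 80.9% (78.8 to 82.9) in HT22 CON. Grik5 supplied 19.0% and 18.1%. Per exonic length Grik2 supplied 58.5% in HT22 SUP and 61.1% in HT22 CON, and Grik5 38.9% and 37.7%, so that Grik2 led at either length. The protein of Grik5, GluK5, is one that needs a partner such as GluK2.

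Set beside hippocampus, Grik2 was the exception of its family. It had 70.3 CPM, from 927 reads, in HT22 SUP and 61.0 CPM, from 1117 reads, in HT22 CON, which is 92.5% (86.65 to 98.7) and 80.3% (75.7 to 85.2) of its mean level in the hippocampus libraries. With the authors' RPKM these were 73.7% and 73.9%, and with TMM over all 4 libraries 84.8% and 73.0%, outside the intervals just given. The median over 10217 genes with at least 10 CPM in both hippocampus libraries was 91.0% in HT22 SUP and 94.9% in HT22 CON. Grik5 stood at 6.21% (5.45 to 7.05) in HT22 SUP and 5.02% (4.43 to 5.65) in HT22 CON. The other 7 members were between 0% and 2.25% in HT22 SUP and between 0% and 1.35% in HT22 CON. In HT22 SUP 3 of the 9 members, and in HT22 CON 6, were under 1% of the hippocampus level, where 8.48% and 13.9% of those genes were. The counting intervals of Grik1 and Grik4 in HT22 SUP, and of Gria3, Gria4, Grik1 and Grik3 in HT22 CON, held 1%. Of these, Gria4 in HT22 CON lay above 1%, at 1.35% (0.80 to 2.13), and the others lay below. The counts of 3 and 6 thus rest in part on members whose place below or above 1% is uncertain. Hippocampus and HT22 counts stand in separate tables, and tissue and cell line differ in depth and in cell makeup, so these are levels with no test.

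Reads for the low members were few. Gria2 had 153 reads in HT22 SUP and 107 in HT22 CON, Gria1 75 and 41, and Gria3 72 and 38. Gria4 had 17 and 18 reads, and Grik3 had 19 and 11. Grik4 had 6 reads in HT22 SUP and 0 in HT22 CON, where 3 counts would be 0.221% of the hippocampus level and the exact 95% upper limit is 0.272%. Grik1 had 0 reads in HT22 SUP and 3 in HT22 CON, and in SUP 3 counts would be 1.38% of the hippocampus level and the exact 95% upper limit is 1.7%. Whether Gria1 or Gria2 led the AMPA genes in HT22 cells depended on the length used. Per coding length Gria2 made up 48.7% (43.1 to 54.3) of the AMPA level in HT22 SUP and 52.9% (45.8 to 59.9) in HT22 CON, and Gria1 23.2% (18.7 to 28.2) and 19.7% (14.5 to 25.8). Per exonic length Gria1 made up 38.5% (32.3 to 44.9) in HT22 SUP and 33.3% (25.7 to 41.4) in HT22 CON, and Gria2 30.5% (25.9 to 35.5) and 33.8% (27.7 to 40.4), with overlapping intervals in both cultures. Gria1 stood at 0.467% of its hippocampus level in HT22 SUP and 0.184% in HT22 CON, whereas Gria2 stood at 1.5% and 0.755%, with intervals apart, a comparison within each gene that no length enters.

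The HT22 label is that of a hippocampal neuron cell, and the neuronal marker lists were low in it. The 10 pan-neuronal markers summed to 315.5 CPM in HT22 SUP and 287 CPM in HT22 CON, and the 6 excitatory markers to 98.8 and 41.7 CPM. Rbfox3, a marker of mature neurons, had 33 reads in HT22 SUP and 15 in HT22 CON, while Eno2 had 2370 and 4042. Of the 12 AMPA auxiliary genes 2 were measured, Cnih2 with 21.1 RPKM in HT22 SUP and 19.8 in HT22 CON and Cacng7 with 7.92 and 9.37 RPKM. None of the kainate auxiliary list was, since Neto1 had 16 and 5 reads and Neto2 11 and 9. Adarb1 had 10.0 RPKM in HT22 SUP and 10.6 in HT22 CON, and Adar had 17.4 and 15.7.

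Promoters of Grik2, near its hippocampus level in HT22 cells, and Gria2, far below it, are shown side by side, since the series concerns choline, a methyl donor, and CpG sites are where such methylation occurs. RefSeq on GRCm38.p6 gave windows of 250 bases before to 50 after the gene start for 6 of the 9 members. The Grik2 window is chr10:49788705-49789004 and the Gria2 window chr3:80802786-80803085, both on the minus strand and written 5′ to 3′ with each CG in capitals.
Grik2: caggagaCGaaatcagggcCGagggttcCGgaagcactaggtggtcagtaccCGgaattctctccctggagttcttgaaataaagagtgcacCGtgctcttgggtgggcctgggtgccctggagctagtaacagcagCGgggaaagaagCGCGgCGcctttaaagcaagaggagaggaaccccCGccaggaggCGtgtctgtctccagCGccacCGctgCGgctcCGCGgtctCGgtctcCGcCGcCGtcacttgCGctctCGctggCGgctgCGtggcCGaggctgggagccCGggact
Gria2: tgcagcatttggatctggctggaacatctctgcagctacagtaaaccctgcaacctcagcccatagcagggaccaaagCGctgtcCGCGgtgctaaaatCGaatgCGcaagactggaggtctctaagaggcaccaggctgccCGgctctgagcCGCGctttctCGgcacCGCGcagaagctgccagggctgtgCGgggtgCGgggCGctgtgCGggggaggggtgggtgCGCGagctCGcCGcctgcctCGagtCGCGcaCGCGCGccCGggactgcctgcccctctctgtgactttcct
Each held 26 CG pairs, a number that 16.9% of all 32851 such windows reach or exceed, and the median window held 7. Grik5 held 10, Gria4 17, Grik4 42 and Grik3 50. The letter pair reads the same on both strands. No methylation value was analysed here, so the windows describe sequence only.

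Between the HT22 cultures, the 3 measured AMPA genes were higher in SUP. Of the 9 members 5 reached 50 reads in 1 library, and 3 of these, Gria1, Gria2 and Gria3, were at least 1.5-fold higher in SUP, with 0 lower, where 5.13% of 10854 measured genes were higher and 2.93% lower. Gria1 and Gria3 reached 50 reads only in SUP, so their entry and their ratio are not independent. With 100 reads summed over the 2 libraries as the minimum, the same 3 were higher, as were 4.56% of 10655 genes, and with 50 reads in CON as the minimum Gria2 alone was, as were 3.84% of 10707. Gria3 had 5.46 CPM in HT22 SUP and 2.08 CPM in HT22 CON, and a log2 ratio of 1.35 (0.82 to 2.01). Gria1 had 5.68 CPM and 2.24 CPM, and a ratio of 1.31 (0.79 to 1.94). Gria2 had 11.6 CPM and 5.84 CPM, and a ratio of 0.98 (0.63 to 1.37). Summed over all 4 AMPA genes, 317 reads in HT22 SUP against 204 in HT22 CON gave 1.11 (0.86 to 1.38).

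The 2 kainate genes that HT22 cells carried in quantity were nearer to equal. Grik2 had a log2 ratio of 0.21 (0.09 to 0.34) and Grik5 one of 0.32 (0.06 to 0.58), neither at 1.5-fold. The median over the 5 measured members was 0.98, and that over all measured genes -0.05. Gria1 and Gria3 are among these 5 through SUP only. With 50 reads in CON as the minimum, 3 members were left, with a median of 0.32. The counting interval lay above 0 for all 5 measured members, as it did for 22.4% of measured genes. After the length and GC correction it lay above 0 for 4 of the members. Relative to uniquely mapped reads, of which 63.1% fell in genes in HT22 SUP and 72.9% in HT22 CON, the median of all genes shifted by -0.22 and Grik2 had -0.004, with 16.3 RPKM in both cultures. Grik5 then had 0.10, and Gria1, Gria2 and Gria3 had 1.10, 0.77 and 1.14. Summed over Grik1, Grik3 and Grik4, 25 reads in HT22 SUP and 14 in HT22 CON gave 1.19 (0.32 to 2.38). With Gria4 added, the 4 members under the minimum had 42 and 32 reads and 0.83 (0.18 to 1.59).

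The size of the ratio went with how far a gene lay below its hippocampus level. Gria1, at 0.302% of that level over both HT22 libraries, belongs to 90 measured genes under 1%, whose median ratio was 1.27 and of which 96.7% were 1.5-fold higher in SUP. Most of these genes, Gria1 included, reached 50 reads only in SUP. With 50 reads in CON as the minimum, 37 of these genes were left, with a median of 1.15 and 91.9% higher. Over all 1148 genes under 1%, with no minimum, the summed reads were 17777 in HT22 SUP and 10290 in HT22 CON. Gria2 and Gria3, at 1.07% and 1.44%, belong to 211 genes between 1% and 5%, with a median of 0.84 and 60.2% higher, or 155 genes with 0.56 and 45.8% under the minimum in CON. Grik5, at 5.52%, belongs to 459 genes between 5% and 20% with a median of -0.01, and Grik2, at 85.4%, to 2895 genes between 20% and 100% with a median of -0.06. Markers of some brain cell types were higher in SUP as well. Excitatory neuron markers were 1.5-fold higher in SUP for 3 of 3 measured genes, pan-neuronal markers for 6 of 8 with 1 lower, or 3 of 5 with 1 lower under the minimum in CON, and oligodendrocyte markers for 2 of 2, with a summed oligodendrocyte level of 20.9 CPM in HT22 SUP and 9.62 CPM in HT22 CON. Of the other lists, 1 of 1 dentate granule cell markers was higher, Pdzd2, on 69 reads in HT22 SUP and 29 in HT22 CON. Under the minimum in CON 0 genes of that list were left. Of CA field markers 0 of 2 were higher, of oligodendrocyte precursor markers 0 of 2 and of microglia markers 0 of 1. Of choroid plexus markers 0 of 2 were higher, with a median of -0.31, and of astrocyte markers 1 of 2. Some markers that were not higher exceeded their hippocampus level, such as Aqp1 (102 RPKM in HT22 SUP, 8.29 in F1m-GCS) and Pdgfra (66.75 and 18.7). Others, such as Wfs1 (6.03 and 44.1), lay below it. Interneuron and endothelial lists had 0 measured genes. Their summed levels were 9.17 and 4.09 CPM in HT22 SUP and 3.66 and 1.37 CPM in HT22 CON. The part of such transcripts in the Gria ratios was not tested.

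**Figure D4:**
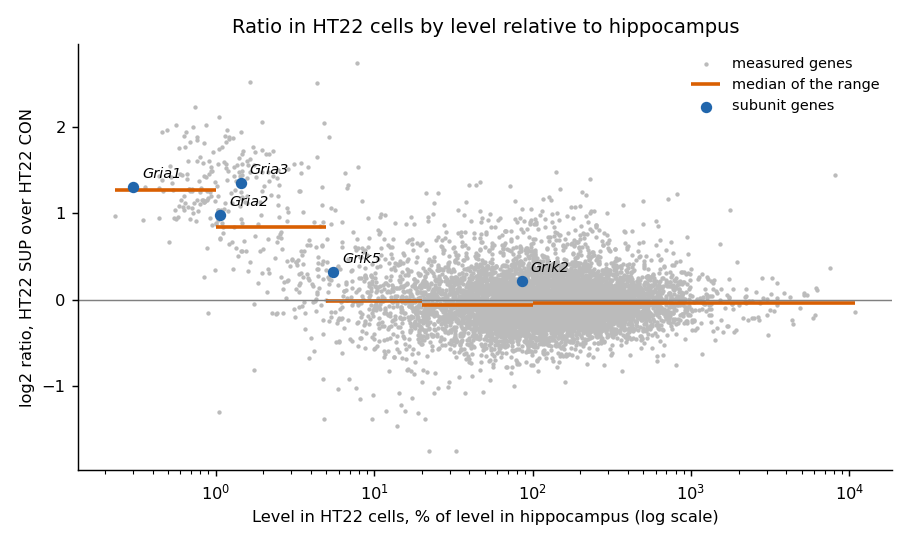
Log2 ratio of HT22 SUP over HT22 CON against the level in HT22 cells as a percentage of the hippocampus level (log scale), for measured genes with at least 10 CPM in hippocampus; orange bars are medians of the ranges under 1%, 1% to 5%, 5% to 20%, 20% to 100% and above. Gria1, Gria2 and Gria3 lie among the genes of low relative level and high ratio, and Grik2 and Grik5 among the rest.

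In the authors' deposited table for HT22 cells, no member has a false discovery rate below 0.05, against 4.75% of genes with a positive fold change and 4.80% with a negative one. Its log2 fold changes for Gria1, Gria2 and Gria3 are 0.52, 0.34 and 0.45 in the authors' deposited table, which do not equal the ratios of the 2 count columns given above. Which contrast those deposited fold changes and rates describe is not stated, so they are not set against the ratios further.

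Among partner genes in HT22 cells, 2 were 1.5-fold higher in SUP and 0 lower, where 5.13% of 10854 measured genes were higher and 2.93% lower. Of the AMPA auxiliary list 0 of 2 measured genes were higher, and of the RNA editing list 0 of 2. Frrs1l, which acts in AMPA receptor assembly, had 96 reads in HT22 SUP and 64 in HT22 CON, with 1.04 (0.60 to 1.55), and was the 1 of 7 in its list. Akap5 had 91 and 29 reads, with 2.05 (1.52 to 2.79), and was the 1 of 7 measured trafficking genes. Akap5 reached 50 reads only in SUP, and with 50 reads in CON as the minimum 0 of 6 trafficking genes were higher. Both genes lay below their hippocampus level. The ratio of Akap5 exceeded the 95th percentile of genes between 1% and 5% of the hippocampus level, 1.85. It also exceeded that of genes between 5% and 20%, 0.72. The part of relative level in these 2 ratios was not tested. Frrs1l had 5.21 RPKM in HT22 SUP against 459 in F1m-GCS, and Akap5 1.93 against 30.2. The other partners farthest from 0 in their lists stayed under 1.5-fold, among them Dlg4, the gene of the scaffold PSD-95, at 0.19, Pick1 at -0.23, Sacm1l at -0.22 and Cpt1c at 0.18. Adar had 0.37 (0.26 to 0.48) and Adarb1 0.14 (-0.05 to 0.32), with neither at 1.5-fold.

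Genes with the most similar levels were found by the distance in log2 CPM over the 4 libraries. For Gria1 these were Hpca at a distance of 0.45, Syn2 at 0.79 and 6330403A02Rik at 0.88, and for Gria2 Aldoc at 0.37, Ppp2r2c at 0.47 and Eef1a2 at 0.52. For Gria3 they were Plcb1 at 0.16, Dzank1 at 0.25 and Nrxn3 at 0.28. Plcb1 had 8082 reads in F1m-GCS, 6852 in F1m-CON, 78 in HT22 SUP and 35 in HT22 CON. For Grik2 they were Osbpl8 at 0.17, Insr at 0.22 and Arhgap12 at 0.23, for Grik5 Schip1 at 0.28, Tmcc2 at 0.30 and Celf5 at 0.35, and for Grik4 Nap1l3 at 0.53, Rundc3b at 0.69 and Fbxo2 at 0.72.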

How the data were processed

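Poly(A)-selected RNA of 2 hippocampus and 2 HT22 libraries was sequenced in paired-end mode, per the labels' protocols. The design text of the series names Trim Galore for trimming and TopHat2 for alignment to mm10 (up to 2 mismatches, mapping quality 4 or more). It names HTSeq for the reads per gene and edgeR for the group comparisons. CASAVA 1.8 is named without a role, per the submitters' processing notes. No source used here says whether counting was stranded. Per the file headers, 1 count column per library holds raw reads. Deposited RPKM, which the authors scaled to 1000000 uniquely mapped reads and to coding length in kilobases, equals the value recomputed from the counts in all genes. Each table also has a deposited log2 fold change, p-value and false discovery rate from the authors. Of the coding lengths, 99.8% are multiples of 3 among protein-coding genes.

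Groups came from the source names (hippocampus) and the choline concentration in the titles (HT22). Log2 ratios used counts scaled with TMM (edgeR 4.0.16, R 4.3.3) and a prior count of 2. Genes with 50 or more reads in either library count as measured, and are called higher or lower at 1.5-fold. Intervals are exact at 95%: Poisson for levels, Clopper-Pearson for ratios and shares. Reads are not independent molecules, so they cover counting error only. The ratio and its interval were run on simulated Poisson counts. These follow the interval's own assumption, so the run checks the computation and not the spread between samples. For the length and GC correction, genes were split into 10 length and 5 GC groups and each group's median ratio was taken off, with GC from GENCODE M21 for 21096 of 22328 genes. Python 3.11.15 and scipy 1.17.1 were used.

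The members and lists were chosen with earlier results of these data known. All 9 members are named, with up to 3 measured genes of each partner list farthest from 0 in each comparison, and the 3 protein-coding genes nearest in log2 CPM to each member measured in both comparisons and to Grik4, the best counted of the others. Other genes, read levels and the ranges of relative level were chosen after their values were seen. Shisa8 was not analysed here, and 1 partner list is not reported here. Alternatives were total counts, DESeq2 1.42.0 size factors, other prior counts, minimums and folds, and other lengths, with uniquely mapped reads as library size and minimums on summed or CON reads added after the data were seen.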

Additional observations from a re-analysis of the deposited data

How the results depend on the processing

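No paired analysis was possible because each group held 1 library. In hippocampus 0 members and 0 partner genes reached 1.5-fold under every alternative run. In HT22 cells the 3 members that were 1.5-fold higher in SUP became 0 with a minimum of 200 reads, since Gria1, Gria2 and Gria3 have fewer, 1 (Gria2) with 50 reads in CON, 2 at a 2-fold call, which Gria2 misses, 4 with a minimum of 10 reads, 3 with 100 reads summed over both libraries and 5 without a minimum, where 1 member, Grik1, was also lower on 0 reads in SUP and 3 in CON. The 2 partner genes that were higher became 13 with a minimum of 10 reads, 19 without a minimum, 0 with a minimum of 200 reads and 1 with 50 reads in CON, and in these settings the number of genes counted changes by construction. Per exonic length of GENCODE M21, Gria1 made up 68.5% of its family in F1m-GCS and 71.8% in F1m-CON, and Grik5 66.1% and 67.2%. As shares of reads, Gria1 made up 50.9% in F1m-GCS and 54.9% in F1m-CON, and Grik5 54.5% and 56.2%. Among ratios of single members, 6 of 14 moved outside their counting interval with the correction for length and GC, 1 of 14, that of Grik2 in HT22 cells, with uniquely mapped reads, and 0 of 14 with total counts, DESeq2 size factors or prior counts of 0.25 and 10; none of those at 1.5-fold changed sign. Depth limits the 4 members under 50 reads in both HT22 libraries, whose ratios are not reported singly.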
